A study of Homo sapiens with 10 samples.

Results

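NOTCH1 and 6 genes that act with it or downstream of it in T cells were described through the peak regions listed around them in RPMI-8402, an established human cell line of T-cell acute lymphoblastic leukaemia. The other genes were NOTCH3, NRARP, HES1, HES4, DTX1 and PTCRA. Each gene was given a fixed window of the hg19 genome, and a region belonged to the window when it shared at least 1 bp with it. The windows were set at chromosome 9 from 139.35 to 139.46 Mb for NOTCH1, chromosome 19 from 15.265 to 15.317 Mb for NOTCH3 and chromosome 9 from 140.189 to 140.202 Mb for NRARP. Those of the other genes were chromosome 3 from 193.8 to 193.9 Mb for HES1, chromosome 1 from 0.929 to 0.941 Mb for HES4, chromosome 12 from 113.49 to 113.541 Mb for DTX1 and chromosome 6 from 42.878 to 42.899 Mb for PTCRA. Together the 7 windows span 359 kb and held 78 of the 121294 regions of 6 peak lists.

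All libraries came from the same untreated line, grown in RPMI medium with serum, and no genotype or treatment differed between them. They were made by CUT&RUN, in which an antibody on its target directs a nuclease to cut out the DNA beside it. The lists used were MYC of set C with 9498 regions and of set D with 18018, MYCN of set A with 895, H3K4me3 of set B with 13852, and H3K27ac and H3K4me1 of set C with 39528 and 39503. Of the 10 libraries, 4 were control IgG and were not used here. Only MYC has 2 libraries, and both of its lists name 1 common signal track in their headers, so their independence is not settled. Every other target has 1 library, so no difference below has a replicate check and none was tested. The lists give positions without a score or read count, so depth is unknown, and they hold no expression against which the labelled cell type could be checked. Exact 95% binomial intervals cover counting error over the listed regions only.

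Notch receptors are cut at the membrane after a ligand on a neighbouring cell binds, and the freed intracellular part enters the nucleus. There it joins the DNA-binding protein RBPJ and the coactivator Mastermind at target genes. The pathway commits blood progenitors to the T lineage, and activating NOTCH1 mutations are frequent in T-cell acute lymphoblastic leukaemia, where MYC is a direct target. MYC and MYCN bind DNA as partners of MAX. H3K4me3 marks active promoters, H3K27ac active promoters and enhancers, and H3K4me1 mostly enhancers and the flanks of promoters.

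Promoter sequences of HES1 and HES4, whose windows held H3K4me3 with MYC, and of NRARP, whose window was empty in all 6 lists, are shown for comparison. They are the 250 bases before the gene start from RefSeq on GRCh38.p14, read 5′ to 3′ along the gene. Capitals mark TGGGAA, the core of the RBPJ motif, searched on both strands together with the E-box CACGTG, to which MYC and MAX bind. The HES1 stretch is chr3:194135898-194136147 on the plus strand, the HES4 stretch chr1:1000098-1000347 on the minus strand, and the NRARP stretch chr9:137302272-137302521 on the minus strand.
HES1: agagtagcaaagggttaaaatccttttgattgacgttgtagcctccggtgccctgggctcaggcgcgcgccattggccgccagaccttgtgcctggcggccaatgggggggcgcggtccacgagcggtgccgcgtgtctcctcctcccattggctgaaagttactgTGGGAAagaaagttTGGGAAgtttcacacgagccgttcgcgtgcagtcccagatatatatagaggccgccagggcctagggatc
HES4: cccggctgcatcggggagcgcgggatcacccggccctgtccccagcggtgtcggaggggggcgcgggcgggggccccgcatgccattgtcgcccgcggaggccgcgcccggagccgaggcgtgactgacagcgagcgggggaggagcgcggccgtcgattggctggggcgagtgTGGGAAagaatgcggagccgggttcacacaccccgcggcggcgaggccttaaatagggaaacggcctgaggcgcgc
NRARP: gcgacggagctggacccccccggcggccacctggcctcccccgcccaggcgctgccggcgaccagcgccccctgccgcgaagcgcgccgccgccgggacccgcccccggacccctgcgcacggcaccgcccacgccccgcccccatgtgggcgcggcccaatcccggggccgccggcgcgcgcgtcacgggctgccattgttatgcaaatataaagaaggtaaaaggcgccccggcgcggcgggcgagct

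RefSeq promoters were matched for 6 of the 7 genes, all but DTX1. TGGGAA occurred 2 times in the HES1 stretch, 84 and 70 bases before the start at its first base, and 1 time in the HES4 stretch, 76 bases before the start. It did not occur in the stretches of NOTCH1, NOTCH3, NRARP or PTCRA. Of all 35114 promoter stretches of this length in the table, 20.8% held it at least 1 time and 2.90% at least 2 times. The longest stretch shared by the HES1 and HES4 promoters on the gene strand was TGTGGGAAAGAA, which contains that motif. It was found in 6 of the 35114 stretches on either strand (0.0171%), HES1 and HES4 among them. The stretch was taken from these 2 promoters, so the count is no test of a shared element. No E-box was found in any of the 6 member stretches, against 6.35% of all stretches. These matches are letters in a sequence and not measured sites. The peaks are on hg19 and the promoters on another build, so the peaks were not placed on these sequences.

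The 78 regions were spread unevenly over the 7 windows. NOTCH1 had 29 regions and HES1 22, NOTCH3, HES4 and PTCRA had 7 each, DTX1 had 6 and NRARP none. By list, the windows held 10 MYC regions of set C, 8 MYC peaks of set D, 11 H3K4me3, 19 H3K27ac and 30 H3K4me1 regions, and 0 MYCN peaks. MYC of each set, H3K4me3 and H3K27ac were each found in 5 of the 7 windows, and H3K4me1 in 6. The same 5 windows held MYC and H3K4me3, namely NOTCH1, NOTCH3, HES1, HES4 and PTCRA. When the genome was laid out in tiles as long as each window, MYC of either list met between 7.50% of the 12 kb tiles and 37.2% of the 110 kb tiles. Over the same tile lengths, H3K4me3 met 5.19% to 27.4%, H3K27ac 14.4% to 50.8% and H3K4me1 12.2% to 43.3%. The windows held 27.9 MYC regions of set C per Mb against 3.22 over the whole list, and 22.3 MYC peaks of set D against 6.11. For H3K4me3 the densities were 30.6 and 4.70 per Mb, for H3K27ac 52.9 and 13.4, and for H3K4me1 83.6 and 13.4. The windows were drawn around genes and the whole lists include gene-poor sequence, so higher densities are a property of that choice too.

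**Figure D1:**
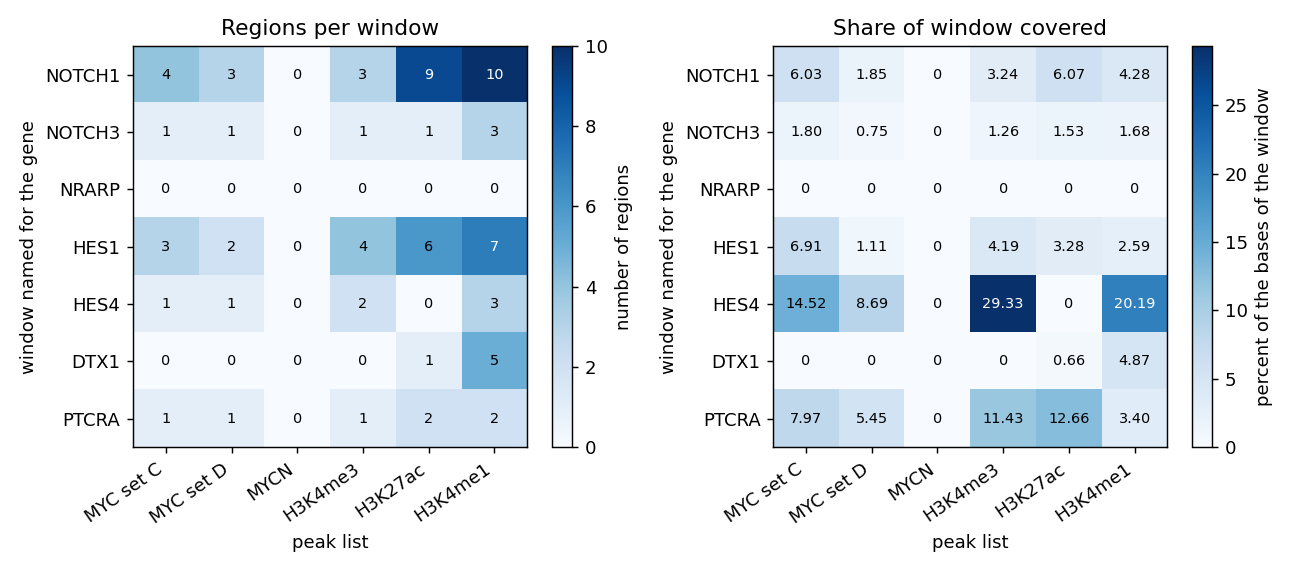
Number of regions (left) and percent of the window's bases covered (right) for the 7 windows, in rows, and the 6 peak lists, in columns. NOTCH1 and HES1 have the most regions, HES4 has the largest H3K4me3 share (29.33%), and NRARP is 0 throughout, as is the MYCN column.

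NOTCH1, the receptor itself, had the widest MYC region of each set overlapping the widest H3K4me3 region of its window. The widest H3K4me3 region was chr9:139438701-139440795 (2095 bp), with 21.7% of the list as wide or wider, and a second of 281 bp lay 527 bp to its right. MYC of set C covered the right part of the wide region and all of the small one with chr9:139439316-139441912 (2597 bp), a width that 3.03% of that list reached. MYC of set D lay inside it at chr9:139440498-139441694 (1197 bp), reached by 1.68% of its list. The stretch of highest MYC signal in set C, chr9:139440590-139440592, fell inside both the wide H3K4me3 region and the set D peak. H3K27ac did not overlap the wide H3K4me3 region, and began 98 bp beyond its right end at chr9:139440894-139441864. It covered the small H3K4me3 region whole and shared 971 bp with the set C region and 801 bp with the set D peak. No H3K4me1 met either H3K4me3 region, and the nearest lay 2175 bp to the right of the wide one.

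Around this centre the NOTCH1 window held a left group with MYC in a single list and a right site with MYC in both. Between 10044 and 14462 bp to the left lay 3 H3K27ac and 3 H3K4me1 regions. The widest of these were chr9:139423766-139425467 for H3K27ac (1702 bp, reached by 3.05% of its list) and chr9:139423166-139424238 for H3K4me1 (1073 bp, reached by 2.77%). MYC of set C met the group at chr9:139425008-139426968 (1961 bp), and set D had no peak there. Its stretch of highest signal lay between the H3K27ac regions and met none of the 3 marks. On the right, chr9:139446439-139447410 in set C, 5643 bp away, and chr9:139446813-139447023 in set D, 6017 bp away, met H3K27ac, and set C also met a 187 bp H3K4me1 region. Set D was at its narrowest there (211 bp, with 92.7% of its list as wide or wider). The widest H3K4me1 region of all 7 windows, chr9:139457266-139458745 (1480 bp, reached by 0.582% of its list), lay 16470 bp to the right and overlapped H3K27ac but no MYC.

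A further H3K4me3 region stood 61036 bp to the left of the NOTCH1 centre, chr9:139376477-139377664 (1188 bp). MYC of set D met it by 103 bp at chr9:139377562-139378191, while the nearest MYC region of set C, chr9:139379037-139380141, began 1372 bp beyond it and met an H3K4me1 region. This was therefore a place where the MYC lists named neighbouring and not overlapping sites. RefSeq orders SEC16A next to NOTCH1 on this side and EGFL7 on the other, and no gene start was placed on hg19 here, so this region was not assigned to a gene.

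NOTCH3, a second receptor that is itself a NOTCH1 target in T-cell leukaemia, carried its MYC away from H3K4me3. Its H3K4me3 region, chr19:15311107-15311761 (655 bp, with 73.5% of the list as wide or wider), overlapped no other list. MYC lay 2192 bp to its left in set C (chr19:15307977-15308914, 938 bp) and 2486 bp to its left in set D (chr19:15308230-15308620, 391 bp). The set D peak lay wholly inside the set C region. Both met H3K27ac (chr19:15308077-15308870, 794 bp) and H3K4me1. The stretch of highest MYC signal in set C met H3K27ac, H3K4me1 and MYC of set D at the same place. It was the only MYC site of the 7 windows where both lists met H3K27ac with H3K4me1 and no H3K4me3. Neither MYC width was unusual, as 74.1% of set C and 55.0% of set D were as wide or wider. To the left the window was empty, as part of a stretch of 43.8 kb without a region of any list.

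HES1, a basic helix-loop-helix repressor and a classical Notch target, had the widest H3K4me3 region of the 7 windows and the widest MYC region of set C. In set D its widest peak (678 bp) was narrower than those of the NOTCH1 (1197 bp), PTCRA (1145 bp) and HES4 (1043 bp) windows. It was wider than that of the NOTCH3 window (391 bp). The H3K4me3 region was chr3:193853668-193857098 (3431 bp, reached by 3.45% of the list), flanked by 3 short ones of 229 to 291 bp. MYC of set C formed 3 regions across these, of which the widest, chr3:193856951-193860634 (3684 bp), ranked 84 of 9498. The other 2 were chr3:193852186-193854180 (1995 bp) and chr3:193854491-193855720 (1230 bp), and the last of these lay wholly inside H3K4me3. MYC of set D had 2 peaks, chr3:193852473-193853150 (678 bp) and chr3:193859423-193859855 (433 bp), each inside a set C region. Neither met the wide H3K4me3 region: the nearer ended 517 bp to its left. Set C and set D therefore differed at the centre of HES1, where set C shared 1891 bp with the wide H3K4me3 region and set D none. Each set D peak did overlap a short flanking H3K4me3 region, by 137 and 141 bp.

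Acetylation at HES1 lay to the right of the widest H3K4me3 region and not on it. H3K27ac began 266 bp beyond its right end at chr3:193857365-193857904 (540 bp) and went on with chr3:193858553-193859951 (1399 bp, reached by 7.26% of its list). Both were covered whole by the widest MYC region of set C, and the second held the set D peak of 433 bp whole. The stretch of highest signal of that MYC region, chr3:193859644-193859655, also lay in H3K27ac and in the set D peak. The stretches of highest signal of the other 2 MYC regions lay in the wide H3K4me3 region and outside H3K27ac. Farther out the window held 4 more H3K27ac regions of 196 to 466 bp and 6 more H3K4me1 regions of 189 to 704 bp, from 45866 bp to the left to 27636 bp to the right. None of these met MYC in either list.

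**Figure D2:**
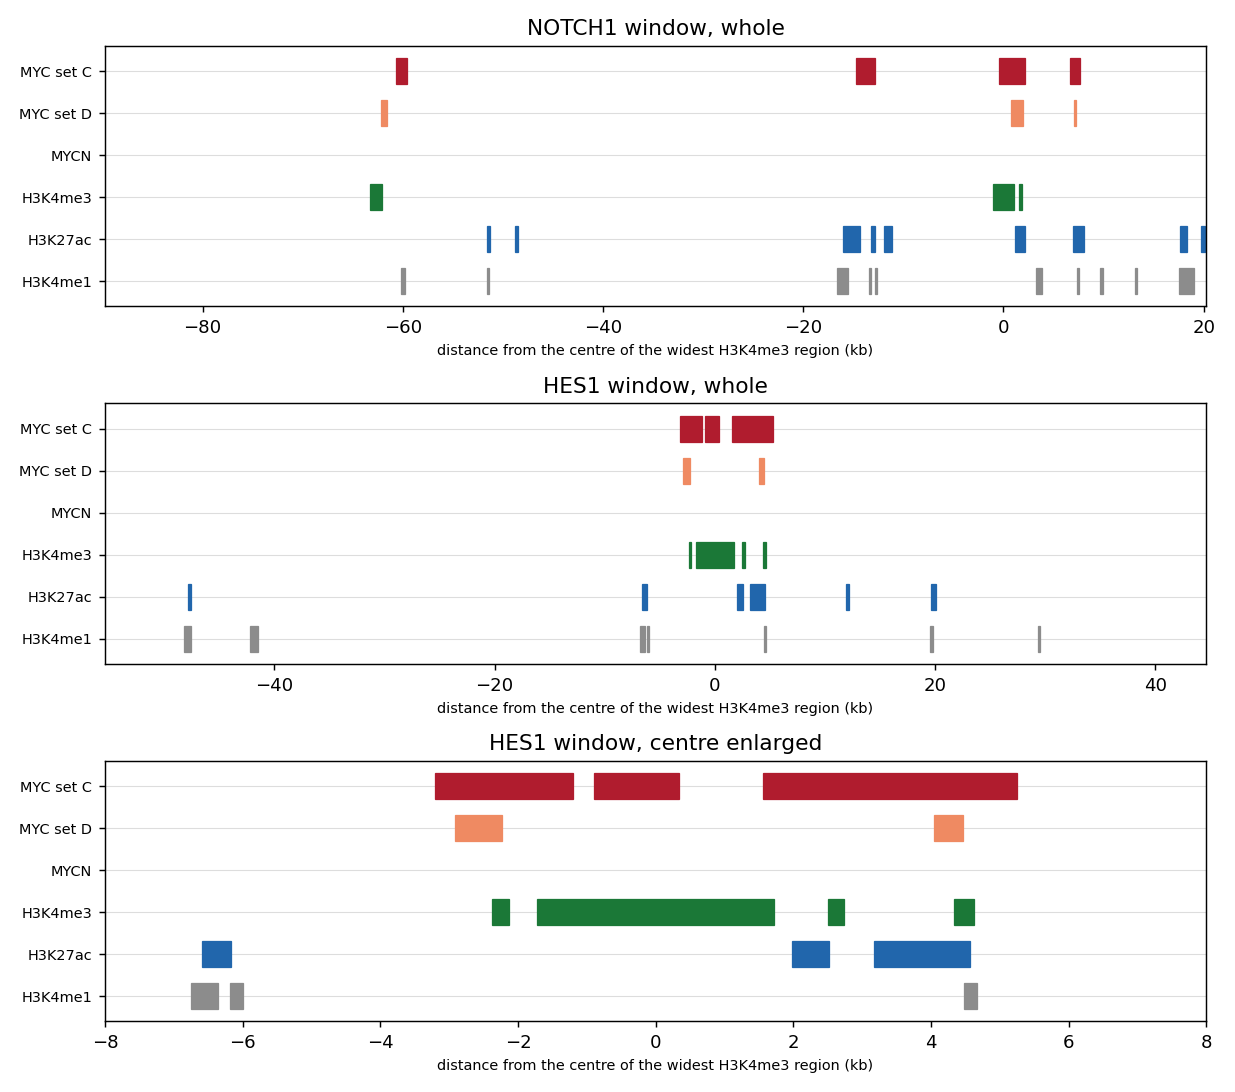
Regions of the 6 lists, in rows, drawn to scale along the NOTCH1 window, the HES1 window and the centre of the HES1 window, with the distance in kb from the centre of the widest H3K4me3 region on the horizontal axis. H3K27ac lies beside the widest H3K4me3 region in both windows, starting 98 bp beyond it at NOTCH1 and 266 bp at HES1, and the set D peaks at HES1 flank it.

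HES4, a relative of HES1 and a human Notch target, combined H3K4me3 and MYC with no H3K27ac in its window. H3K4me3 formed chr1:933941-936179 (2239 bp, reached by 17.7% of the list) and chr1:936318-937598 (1281 bp), 138 bp apart. MYC bridged them in both lists, at chr1:934838-936579 in set C (1742 bp) and chr1:935504-936546 in set D (1043 bp, reached by 3.85% of its list). The set D peak lay wholly inside the set C region, and so did the stretch of highest signal of set C inside the set D peak. The nearest H3K27ac began 10993 bp beyond the right H3K4me3 region, outside the window. H3K4me1 stood on both sides, with chr1:932214-933314 (1101 bp, reached by 2.45% of its list) 626 bp to the left and chr1:939781-940814 (1034 bp) 2182 bp to the right of the second H3K4me3 region. All 3 H3K4me1 regions of the window overlapped no other list.

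NRARP, which encodes a small ankyrin-repeat protein that is induced by Notch and limits its nuclear complex, had no region of any list in its 13 kb window. Of all tiles of that length, 20.5% held a region of at least 1 list, so an empty tile was the usual case over the genome. The tiles include gene-poor sequence, while the window was drawn around a gene, so this share is no measure for windows at genes. The window lay in a stretch of 190 kb without any region, chr9:140166406-140356234. Stretches this long made up 4.32% of the 64139 stretches between regions, and they held 51.3% of the bases outside regions. The nearest regions to the left of the window were H3K4me1 at 22.6 kb, H3K27ac at 22.9 kb, H3K4me3 at 38.5 kb and MYC at 52.9 kb in set C and 53.3 kb in set D. The NRARP promoter printed above has 78.4% G and C, and the NOTCH3 promoter 78.0%. Any part of base composition in the empty window was not tested. An empty list says that no region was called there, not that a mark was absent.

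DTX1, a ubiquitin ligase that binds Notch and is induced by it, had H3K4me1 without H3K4me3 or MYC. Of the tiles of 51 kb, 16.2% held H3K4me3 and 23.1% held MYC of either list. The 5 H3K4me1 regions were 348 to 578 bp wide, the widest being chr12:113507809-113508386, and 4 of them overlapped no other list. The fifth, chr12:113536098-113536445, shared 307 bp with the only H3K27ac region, chr12:113536070-113536404. The nearest H3K4me3 was 81.1 kb beyond the right end of the window and the nearest MYC 49.8 kb beyond it in set D. RASAL1 follows DTX1 on that side in RefSeq, and the acetylated region was not assigned to either gene.

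PTCRA, the invariant chain that pairs with the T-cell receptor beta chain in immature thymocytes, had 2 separate groups of regions. The left group was H3K27ac at chr6:42883472-42884089 (618 bp) with H3K4me1 at chr6:42883355-42883892 (538 bp) and a second H3K4me1 region of 175 bp, with neither H3K4me3 nor MYC. The right group, 11937 bp beyond the left, was H3K4me3 at chr6:42896331-42898730 (2400 bp), H3K27ac at chr6:42896231-42898271 (2041 bp), MYC of set C at chr6:42896599-42898272 (1674 bp) and MYC of set D at chr6:42896639-42897783 (1145 bp). Here all 4 lists lay on each other, with 1941 bp shared by H3K4me3 and H3K27ac and the whole of both MYC regions inside H3K4me3. This H3K27ac region was the widest of the 7 windows and was reached by 1.21% of its list. RefSeq places CNPY3 next after PTCRA, and without an hg19 annotation the right group was not assigned to PTCRA or to CNPY3.

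**Figure D3:**
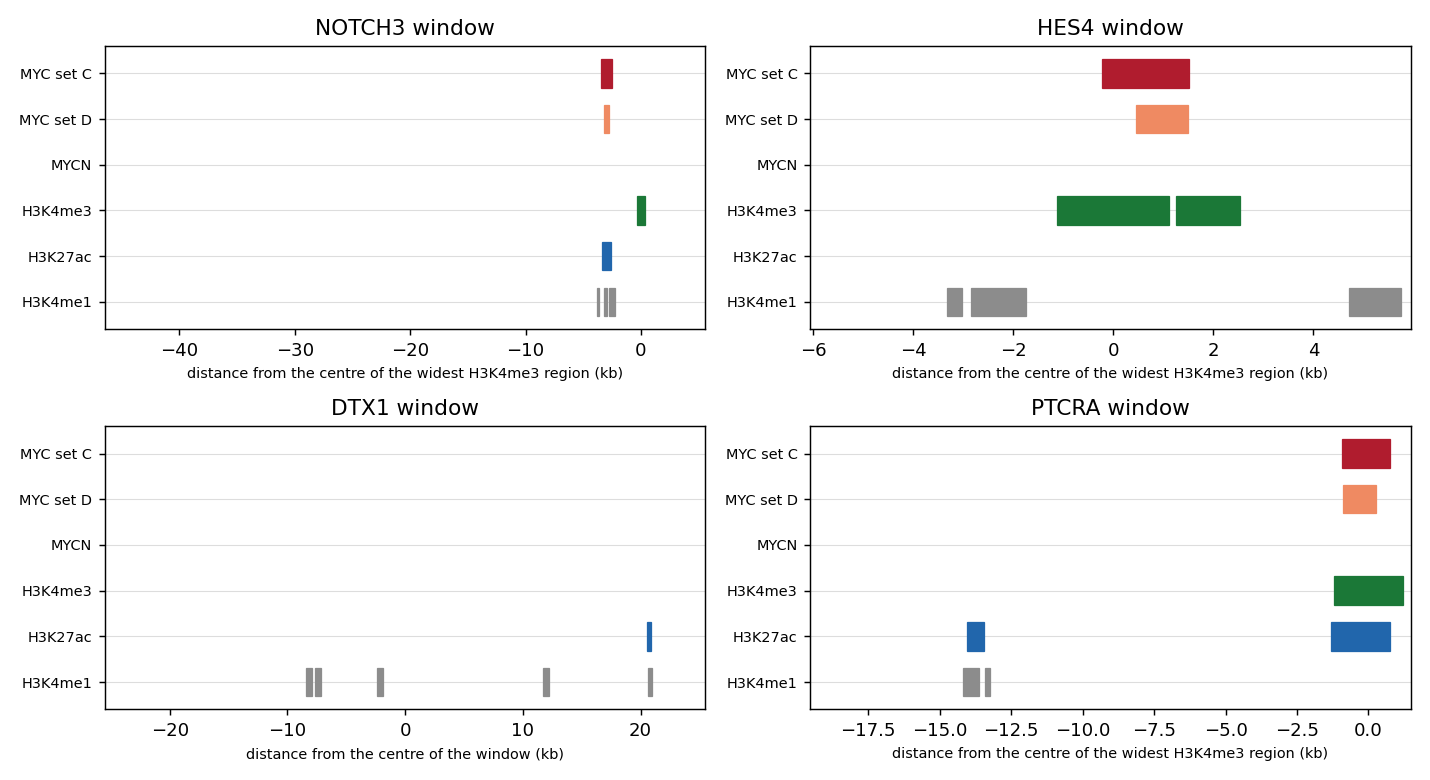
Regions of the 6 lists, in rows, drawn to scale along the NOTCH3, HES4, DTX1 and PTCRA windows, with the distance in kb from the centre of the widest H3K4me3 region (for DTX1, which has none, from the centre of the window). MYC lies 2192 and 2486 bp from H3K4me3 at NOTCH3, on H3K4me3 without H3K27ac at HES4, and on both marks at the right end of the PTCRA window, while DTX1 has no MYC.

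Across the windows, 10 of the 11 H3K4me3 regions overlapped MYC of at least 1 list (90.9%, interval 58.7 to 99.8%), where 76.7% of all H3K4me3 regions did. The exception was the region at NOTCH3. MYC of set C met 9 of the 11 (81.8%, 48.2 to 97.7%) against 47.9% of the list, MYC of set D 8 (72.7%, 39.0 to 94.0%) against 72.3%, and both lists 7 (63.6%, 30.8 to 89.1%) against 43.4%. The interval for set C lay just above the share of its whole list, and the other 3 intervals include theirs. The 9 regions are not independent, and the interval does not allow for this. The same set C region met both H3K4me3 regions at HES4, and another met both at the NOTCH1 centre. The widest set C region at HES1 met several H3K4me3 regions. MYCN met 0 of the 11, which allows a share of up to 27.3% counted as 3 regions of 11 (28.5% as the exact upper bound), where 5.10% of all H3K4me3 regions held it. At 5.10% the absence of MYCN from 11 regions was not detectable as a difference. The MYCN peak nearest to an H3K4me3 region of the windows was 37.5 kb away from that of the PTCRA window. The others were between 74.8 kb at NOTCH3 and 494 kb at HES4.

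The widest H3K4me3 regions of NOTCH1, HES1 and HES4 had no H3K27ac on them. H3K27ac overlapped 4 of the 11 (36.4%, interval 10.9 to 69.2%), against 66.2% of all H3K4me3 regions, and the interval includes that share. H3K4me1 overlapped 1 of the 11 (9.09%, 0.230 to 41.3%), against 14.4%. Over the whole list the share with H3K27ac rose with width, from 36.5% of regions under 500 bp to 88.9% of those of 3000 bp or more. In the windows it was 3 of the 4 regions under 500 bp and 1 of the 7 regions of 500 bp or more (14.3%, 0.361 to 57.9%), against 74.4% of all regions of 500 bp or more. The 1 was the right group of the PTCRA window. At 2000 bp or more, 1 of 4 was acetylated (25.0%, 0.631 to 80.6%), against 87.8% of the list, while all 4 held MYC of at least 1 list, as did 95.3% of the list. NOTCH1, HES1 and HES4 supplied the other 3. Of the 7 H3K4me3 regions without H3K27ac, 6 held MYC of at least 1 list (85.7%, 42.1 to 99.6%), where 53.7% of all unacetylated H3K4me3 regions did. Counting H3K27ac within 1 kb as present gave 6 of 11 (54.5%, 23.4 to 83.3%), against 72.9%, and brought in NOTCH1 and HES1 but not HES4. These width limits were set after the values were seen. H3K4me3 and H3K27ac come from different sets and different peak formats, and the part of that in these shares was not tested.

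**Figure D4:**
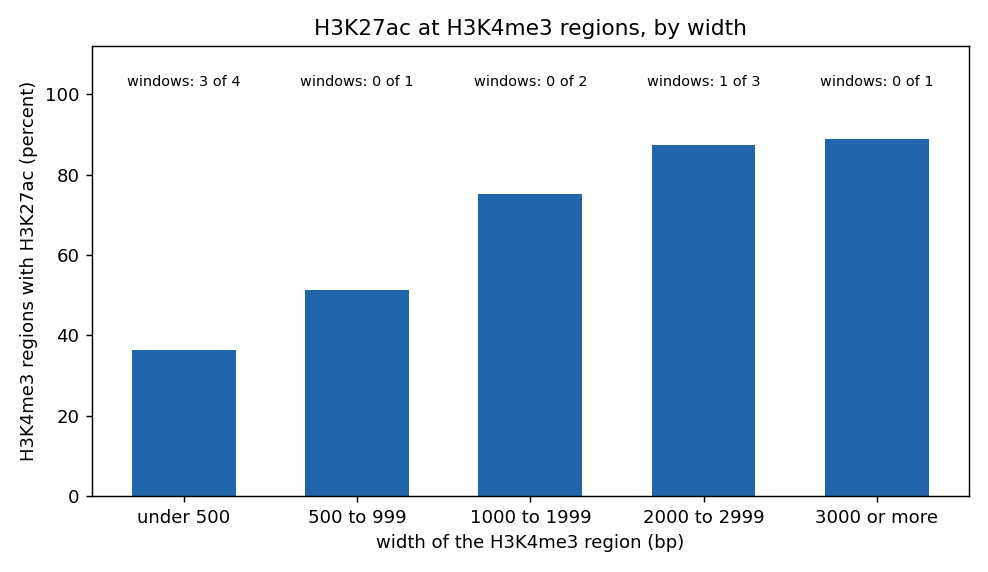
Bars give the percent of all H3K4me3 regions that overlap H3K27ac, in 5 classes of region width in bp, and the text above each bar gives how many H3K4me3 regions of the 7 windows did. The bars rise from 36.5% to 88.9%, while in the windows 1 of the 7 regions of 500 bp or more overlapped H3K27ac.

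Seen from the MYC sites, set C and set D differed most in their overlap with H3K4me1. For each of the 3 marks, the interval of either set includes the share of its whole list. At HES1 a set D peak ended 3 bp short of H3K4me1, and at NOTCH1 another ended 123 bp short. Of the 10 set C regions, 6 met H3K4me3 (60.0%, 26.2 to 87.8%, against 65.9% of the list), 6 met H3K27ac (60.0%, 26.2 to 87.8%, against 78.2%) and 5 met H3K4me1 (50.0%, 18.7 to 81.3%, against 26.6%). Of the 8 set D peaks, 6 met H3K4me3 (75.0%, 34.9 to 96.8%, against 56.0%), 5 met H3K27ac (62.5%, 24.5 to 91.5%, against 70.7%) and 1 met H3K4me1 (12.5%, 0.316 to 52.7%, against 28.2%). The centre of the peak lay in H3K4me3 for 2 of the 8 (25.0%), so the share depends on how an overlap is counted. No MYC site of either list lacked all 3 marks, where 8.10% of set C and 10.5% of set D did, and these counts of 0 allow shares of up to 30.0% and 37.5% counted as 3 peaks of the total (exact upper bounds 30.8% and 36.9%). Between the lists, 7 of the 10 set C regions overlapped set D (70.0%, 34.8 to 93.3%, against 82.5%) and 7 of the 8 set D peaks overlapped set C (87.5%, 47.3 to 99.7%, against 45.1%). All 7 of those set D peaks lay wholly inside a set C region, and the exception was the left site of the NOTCH1 window. The share of all set D peaks lying wholly inside set C was not counted. Set C regions are the wider, with a median of 1165 bp against 422 bp in set D. The stretch of highest signal of the 10 set C regions met H3K4me3 in 5 (50.0%, 18.7 to 81.3%, against 60.5%), H3K27ac in 4 (40.0%, 12.2 to 73.8%, against 62.4%), H3K4me1 in 2 (interval 2.52 to 55.6%, against 14.8%) and set D in 5 (50.0%, 18.7 to 81.3%, against 77.3%). Set C was called with SEACR on read pairs and set D with MACS2 on unpaired reads, and the 2 differences cannot be told apart here.

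The enhancer-type regions of the windows, H3K4me1 with H3K27ac and without H3K4me3, numbered 14 of the 30 H3K4me1 regions, which is 46.7% (28.3 to 65.7%) against 47.0% of the list. NOTCH1 had 6 of them, HES1 4, NOTCH3 2, and DTX1 and PTCRA 1 each. MYC of at least 1 list met 5 of the 14 (35.7%, 12.8 to 64.9%), against 20.4% of all such regions. All 5 were met by set C (8.01% of the list), and 1 of them also by set D (7.14%, 0.181 to 33.9%, against 16.9%). Of the 5, 3 lay in the NOTCH1 window and 2 at NOTCH3, and none of the 4 at HES1 held MYC. The share thus rests on set C. Another 15 of the 30 H3K4me1 regions met neither H3K27ac nor H3K4me3 (50.0%, 31.3 to 68.7%), against 47.8% of the list, and HES4 and DTX1 held 7 of them.

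Taken with or without H3K27ac, 7 of the 30 H3K4me1 regions met MYC of set C (23.3%, 9.93 to 42.3%) against 7.19% of the list, and 1 met MYC of set D (3.33%, 0.0844 to 17.2%) against 13.1%. The 7 are not independent, since 2 at NOTCH1 and 2 at NOTCH3 share a MYC region. Of the 19 H3K27ac regions, 8 met MYC of set C (42.1%, 20.3 to 66.5%, against 19.1%), 5 MYC of set D (26.3%, 9.15 to 51.2%, against 31.6%), 4 H3K4me3 (21.1%, 6.05 to 45.6%, against 23.2%) and 12 H3K4me1 (63.2%, 38.4 to 83.7%, against 45.3%). The 8 H3K27ac regions are not independent either, since 2 at NOTCH1 and 2 at HES1 share a MYC region. For both marks the share of the whole list for set C lay below the interval, narrowly so for H3K27ac. The set D share was lower than that of the whole list, but its intervals include it. The H3K27ac and H3K4me1 lists are themselves of set C. Set and caller cannot be told apart here, and the cause was not tested.

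**Figure D5:**
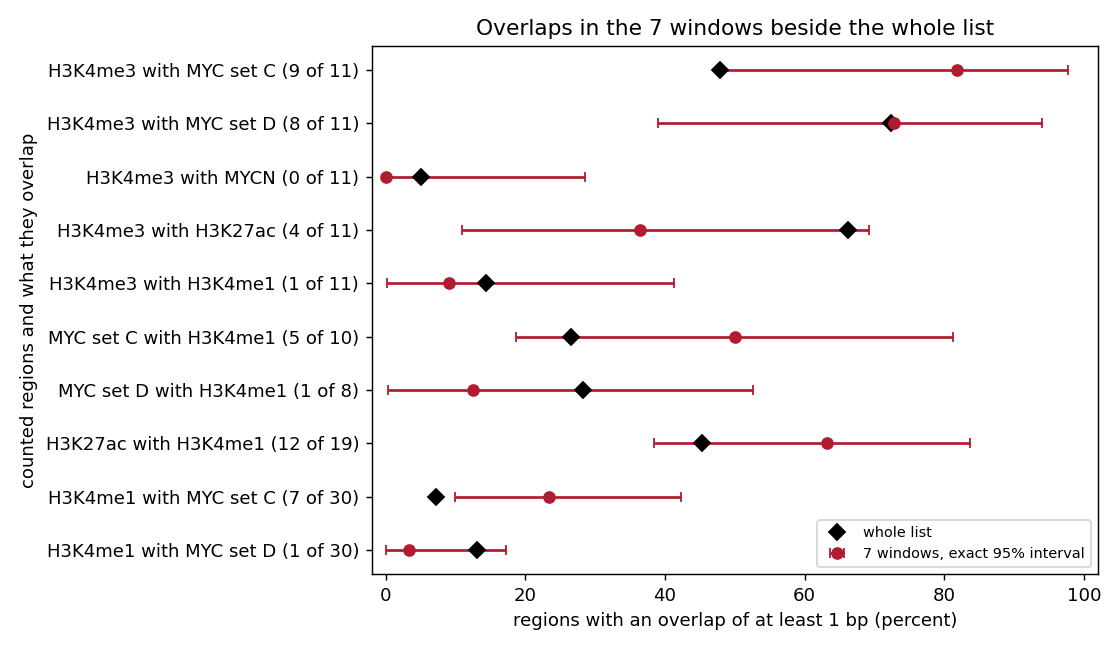
Percent of the regions in the 7 windows (red points, with exact 95% intervals) and of the whole list (black diamonds) that overlap the named list by at least 1 bp. Of the 10 overlaps drawn, the diamond lies outside the interval for H3K4me1 regions with MYC of set C (7.19% against 9.93 to 42.3%) and, narrowly, for H3K4me3 regions with MYC of set C (47.9% against 48.2 to 97.7%). The overlaps drawn are a selection, and the intervals do not allow for regions that share a MYC region. Other shares in the text also lie outside, such as H3K27ac regions with MYC of set C (19.1% against 20.3 to 66.5%). Set D peaks shared with set C are another (45.1% against 47.3 to 99.7%).

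When H3K27ac regions no more than 10 kb apart were joined, the NOTCH1 window met a long cluster that ran past its end. The cluster chr9:139440894-139516276 (75.4 kb, 13 H3K27ac regions) ranked 4 of 28279 by length. It began beside the widest H3K4me3 region of NOTCH1 and left the window on the side of EGFL7. It held 3 MYC regions of set C, 4 MYC peaks of set D, 20 H3K4me1 and 2 H3K4me3 regions, and 0 MYCN peaks. The rank depended on the gap: with 5 kb the longest cluster of the window was 6.94 kb and ranked 427 of 34944, and with 20 kb it was 92.5 kb and ranked 177 of 20282. With 10 kb, HES1 lay in the next longest cluster of the windows, chr3:193848795-193875499 (26.7 kb, 5 H3K27ac regions, rank 322), with 3 MYC regions of set C, 2 MYC peaks of set D and 4 H3K4me3 regions. With 5 kb the longest cluster at HES1 was 2.59 kb (rank 2740), and with 20 kb it was again 26.7 kb but ranked 2392. In the NOTCH3, DTX1 and PTCRA windows no cluster was longer than 2.04 kb with a gap of 10 kb. With 20 kb, the PTCRA window met a cluster of 51.1 kb (rank 772) that held 5 H3K27ac regions and 2 MYCN peaks outside the window.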

How the data were processed

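Peak lists of MYC, MYCN, H3K4me3, H3K27ac and H3K4me1 CUT&RUN libraries of RPMI-8402 were used. The deposited files hold start and end positions on the build named in the submitters' processing notes, hg19, and no score. H3K4me3 peaks were called with MACS2, MYC of set C with SEACR in its stringent mode, MYC of set D with MACS2 on unpaired reads, and MYCN with cutruntools, per the file headers. The SEACR list names the stretch of highest signal for 9482 of 9498 regions. For H3K27ac and H3K4me1 the caller, and for all lists the aligner, is not given in the sources used here.

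Regions on chromosomes 1 to 22 and X were kept, and positions are printed 1-based. Overlap means at least 1 bp, and the leading region of a window is its widest. Widths were ranked within a list only. H3K27ac regions up to 10 kb apart were joined. Shares have exact Clopper-Pearson 95% intervals. With 1 library per target no test was made. The text names all 7 genes. A fixed rule named the leading region of each list and factor sites of windows with at most 5. Further H3K4me3, H3K27ac and H3K4me1 regions are given with coordinates outside that rule. Among them are the H3K27ac regions that begin beside the widest H3K4me3 regions of NOTCH1 and HES1. Members, windows and lists were chosen with earlier results of these data known. Width classes, tiles, empty stretches and the shared promoter stretch were added after the values were seen. No hg19 genome or annotation was used here, so gene starts were not placed and other pathway genes were not analysed here. The overlap code was checked on planted overlaps and against bedtools 2.31.1. The software was Python 3.11.15 with numpy 2.4.6 for overlaps, scipy 1.17.1 for intervals and matplotlib 3.10.9 for plots.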

Additional observations from a re-analysis of the deposited data

How the results depend on the processing

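Of 109 alternative values, 101 stayed within the exact interval of the share, or within 1.5 times the count or length, as reported. This count is not a measure of stability, because the intervals are wide and some values could not move. Leaving out the NRARP window, which held no region, could change none of the shares. Clusters were compared by length and not by rank, which went from 4 to 177 with a gap of 20 kb. The share of set D peaks on H3K4me3 fell from 75.0% to 25.0% when the centre of the peak had to lie in H3K4me3. With only regions at or above the median width of their list, MYC met 100% of 4 H3K4me3 regions and 0% of 4 enhancer-type regions. Enhancer-type regions with MYC were 7.14% with MYC in both lists, and between 7.14% and 35.7% with set D or set C alone. Leaving out NOTCH3 gave MYC at 100% of H3K4me3 regions, and leaving out NOTCH1 gave 100% of set D peaks shared with set C. Leaving out each window in turn gave H3K27ac at 28.6 to 44.4% of H3K4me3 regions. The longest cluster was 6.94 kb with a gap of 5 kb. The causes were not tested. No paired analysis was possible because only MYC has 2 libraries and the labels number no replicates. Depth is unknown, and with 8 to 30 regions a list the intervals are wide.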
